A study of Mus musculus with 2 samples.

Results

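Mir320, Mir484, Mir877, Mir1224 and Mir702, 5 microRNA genes whose hairpins are known to be made without the nuclease Drosha, were followed in left cerebral cortex taken from young mice. They were chosen by their GENCODE M21 symbols among the 2202 microRNA genes of the count tables, by a rule that uses names alone. Each symbol matched 1 gene. The tissue came from female B6CASTF1/J mice, an F1 hybrid of a C57BL/6 and a CAST parent, at an age of 4 days, and was profiled by microRNA-seq. No treatment and no engineered allele is named in the labels. There was 1 group of 2 biological replicates with 1 library each, so that no comparison between conditions exists. The labels number the replicates separately but give them 1 donor record, so whether they are separate animals is not settled. They state a size range below 30 for the RNA sequenced.

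In the usual pathway, Drosha and its partner Dgcr8 cut a hairpin out of a long nuclear transcript, and Dicer then trims it in the cytoplasm to a mature microRNA of which an Argonaute protein keeps a single strand. Capped hairpins skip the first cut because transcription begins at the base of the hairpin and ends soon after it, which leaves a cap on the 5′ end. Spliced-intron hairpins, or mirtrons, skip it because the spliceosome releases a short intron that folds into a hairpin once its lariat is opened. Mir320 and Mir484 are known examples of the capped kind, and Mir877, Mir1224 and Mir702 of the mirtron kind. Bases 2 to 8 of a mature microRNA, its seed, pair with target messenger RNAs. The libraries measured how many reads each hairpin gave and not the route by which it was made.

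The capped hairpins both lie just upstream of a start of a protein-coding gene that is read in the other direction. Mir320 (ENSMUSG00000065528.1) occupies chromosome 14 from 70443510 to 70443591 on the plus strand of mm10, in no annotated gene on its own strand. Its 5′ end is 63 bases from a start of Polr3d, a subunit of RNA polymerase III. Mir484 (ENSMUSG00000070074.1), on chromosome 16, has its 5′ end 359 bases from a start of Marf1, and it overlaps an untranslated exon of another Marf1 transcript on the opposite strand. Outside microRNA genes, the nearest annotated start on its own strand is that of Nde1, from which the hairpin lies at -3649 bases. Nde1 is a regulator of dynein in dividing neural progenitors. Transcripts of microRNA genes themselves were left out of the search for starts. Among the other transcripts of annotation M21, none started within 50 bases of either hairpin on its own strand. The transcription start that defines a capped hairpin is thus not among those transcripts.

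Sequences are from RefSeq on GRCm38.p6, where 4 of the 5 genes matched and Mir320 did not. The Mir484 hairpin, chr16:14159626-14159692 on the plus strand, is shown because its single annotated product, in capitals, starts a few bases from the 5′ end that would carry the cap.
Mir484 hairpin: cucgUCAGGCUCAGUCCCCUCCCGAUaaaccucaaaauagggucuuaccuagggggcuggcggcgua
miR-484: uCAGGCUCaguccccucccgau
In the second line the capitals mark the seed, and no other mouse product in the RefSeq table has it.

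The spliced-intron hairpins coincide with short introns of protein-coding genes. Mir877 (ENSMUSG00000077931.1, chr17:35960730-35960814, minus strand) fills an 85-base intron of Abcf1, an ATP-binding protein of translation initiation, from its first to its last base. Mir1224 (ENSMUSG00000080669.1, chr16:20604452-20604536, plus strand) fills an 85-base intron of Vwa5b2 in the same way. Mir702 (ENSMUSG00000076240.1, chr5:136991433-136991541, plus strand) lies in Plod3, a lysyl hydroxylase that modifies collagen. Its annotated hairpin begins 9 bases before a 102-base intron, within a Plod3 exon, and stops 2 bases before the intron ends.

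The 3 hairpins are shown to place the splice sites, with the first 2 bases of the intron and, where the hairpin reaches them, the last 2 in capitals.
Mir877 hairpin: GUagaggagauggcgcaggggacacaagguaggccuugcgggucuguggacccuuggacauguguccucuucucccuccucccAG
Mir1224 hairpin: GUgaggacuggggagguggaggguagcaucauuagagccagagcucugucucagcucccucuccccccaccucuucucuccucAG
Mir702 hairpin: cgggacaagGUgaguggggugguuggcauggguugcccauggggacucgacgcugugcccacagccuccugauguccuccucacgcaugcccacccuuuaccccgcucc
All 3 carry the GU of a splice donor at the intron's first base, and Mir877 and Mir1224 end in the AG of the acceptor.

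The mature products of the 5′ arms start at that donor, so the splice site supplies part of the seed, here in capitals. Products of Mir1981 and Mir3102, other hairpins that fill an intron exactly, are given for comparison.
miR-877-5p: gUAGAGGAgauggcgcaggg
miR-1224-5p: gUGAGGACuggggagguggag
miR-702-5p: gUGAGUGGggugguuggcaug
miR-1981-5p: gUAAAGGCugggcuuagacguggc
miR-3102-5p: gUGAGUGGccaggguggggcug
The seed of miR-702-5p was found in 1 other mouse product of the RefSeq table, miR-3102-5p. The first 8 bases of these products are identical, and 13 of 21 compared positions are. The other seeds of the 5′ arm shown here were found in no other gene.

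The products of the 3′ arms end at or near the acceptor, with their seeds again in capitals.
miR-877-3p: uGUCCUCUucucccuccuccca
miR-1224-3p: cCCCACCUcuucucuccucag
miR-702-3p: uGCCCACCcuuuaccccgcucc
The product of Mir1224 stops at the last base of its intron, that of Mir877 1 base before it and that of Mir702 2 bases before it. None of these 3 seeds occurs in another gene of the RefSeq table. Counts were deposited per hairpin, so the arms were not measured apart.

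Replicate 1 held 11686912 reads and replicate 2 held 9938361, of which 3555469 and 2761003 lay on the annotated strand of microRNA genes. Levels are given as CPM, counts scaled to a total of 1000000 such microRNA reads per library. One CPM is thus 3.56 reads in replicate 1 and 2.76 in replicate 2, and a count of 0 allows up to 0.844 and 1.09 CPM. Tissue markers went with the label in part. Of 8 neuron-enriched genes 5 were detected, and the list summed to 84344 and 62348 CPM in replicates 1 and 2. The defining Mir124a copies had 2 to 10 reads per library. Reads that match more than 1 copy would fall among those mapped to several places, 45.8% and 41.0% of all reads, which gene counts leave out. These low counts thus cannot show whether the Mir124a product was scarce. The libraries differed in markers of other cells. The 5 epithelial markers summed to 1930.0 and 93.8 CPM, the 3 red cell markers to 60.2 and 550.2 CPM, and the endothelial Mir126a stood at 12842 and 19723 CPM.

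Mir320, whose product is found in many tissues, was the highest of the 5 genes. It had 11644 reads in replicate 1 and 13786 in replicate 2. Its level was 3275 CPM (exact Poisson interval 3216 to 3335) in replicate 1 and 4993 CPM (4910 to 5077) in replicate 2, or 4134 ± 1215 CPM (SD, n = 2). The intervals, which at 95% cover counting error only, did not overlap, so Mir320 was higher in the library of replicate 2. Mir484, likewise known from many tissues, had 9833 and 8437 reads. Its level was 2766 CPM (2711 to 2821) in replicate 1 and 3056 CPM (2991 to 3122) in replicate 2, a mean of 2911 ± 205 CPM. These levels lay closer together than those of Mir320, although their counting intervals did not overlap either.

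The mirtrons stood well below the capped genes and were close to equal in both libraries. Mir877 had 1316 and 1025 reads, which gave 370.1 CPM (350.4 to 391) in replicate 1 and 371 CPM (349 to 395) in replicate 2, a mean of 371 ± 0.783 CPM. Mir1224 had 660 and 493 reads, at 186 CPM (172 to 200.3) and 179 CPM (163 to 195), a mean of 182 ± 5.00 CPM. Mir702 had 650 and 559 reads, at 183 CPM (169 to 197) and 202 CPM (186 to 220.0), a mean of 193 ± 13.9 CPM. For each of the 3 genes the counting intervals of the libraries overlapped. No member had a read on the opposite strand in either library, and the column that ignores strand gave each member the same reads. That column equalled the sum of the strands for 2144 of all 2202 genes in each library, so its match is not particular to the members. The share of all genes without an opposite-strand read is not given here.

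**Figure D1:**
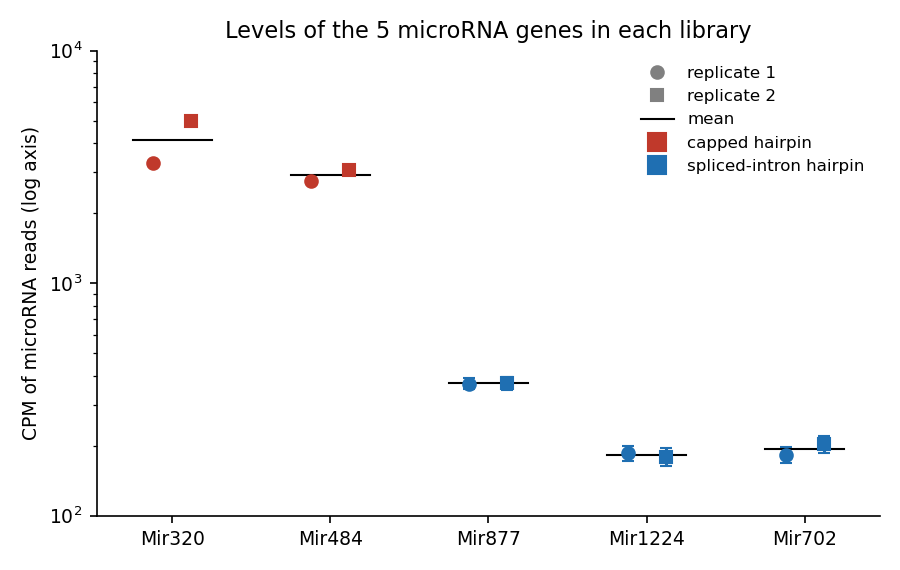
Level of each gene in CPM of microRNA reads on a log axis, with circles for replicate 1, squares for replicate 2, 95% exact Poisson bars and a line at the mean. Mir320 and Mir484 lie between 2766 and 4993 CPM, and the spliced-intron hairpins between 179 and 371 CPM.

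Together the 5 genes held 0.678% of microRNA counts in replicate 1 and 0.880% in replicate 2, a mean of 0.779% ± 0.143. The capped hairpins gave 90.3% ± 1.66 of that sum. Their summed level was 6041 and 8049 CPM, against 739 and 752 CPM for the mirtrons, a ratio of 8.18 in replicate 1 and 10.7 in replicate 2. Mir320 made up 54.2% and 62.0% of the capped reads, and Mir877 50.1% and 49.4% of the mirtron reads.

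The order from the top was Mir320, Mir484, Mir877, Mir702, Mir1224. Mir320 exceeded Mir484 1.18-fold in replicate 1 and 1.63-fold in replicate 2, and no library of Mir484 reached the lower library of Mir320. Mir484 exceeded Mir877 7.47-fold and 8.23-fold. Mir877 exceeded Mir702 2.02-fold and 1.83-fold. Mir702 and Mir1224 did not differ beyond the spread of the libraries: Mir1224 was the higher in replicate 1 and Mir702 in replicate 2. Per base of hairpin the levels were 1.77 CPM for Mir702 and 2.14 CPM for Mir1224. Those of Mir320, Mir484 and Mir877 were 50.4, 43.4 and 4.36 CPM. The hairpins of Mir702 and Mir1224 have 109 and 85 bases but their annotated products 21 or 22, so that scaling does not rank the products. How efficiently each small RNA is ligated and amplified can differ between microRNAs, and so the order of reads need not be that of molecules.

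Among all 2202 genes by mean CPM, Mir320 ranked 50, Mir484 65, Mir877 152, Mir702 191 and Mir1224 193. All 5 were detected, that is, had 2 CPM or more in both libraries, as did 20.4% of all genes. Among the 450 detected genes Mir320 was above 88.9%, Mir484 above 85.6%, Mir877 above 66.2%, Mir702 above 57.6% and Mir1224 above 57.1%. The ranks of single libraries ran from 42 to 57 for Mir320 and from 60 to 66 for Mir484. Thus the mirtrons lay above the middle of the detected range and the capped genes near its top.

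**Figure D2:**
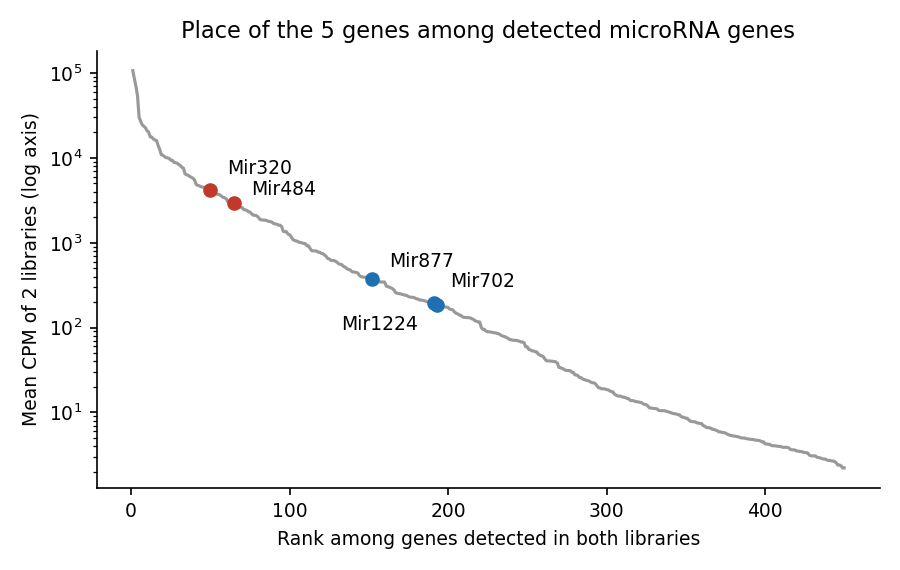
Mean CPM of 2 libraries on a log axis against rank, for the 450 genes detected in both libraries. The capped Mir320 and Mir484 (red) stand at ranks 50 and 65, and the spliced-intron Mir877, Mir702 and Mir1224 (blue) at 152, 191 and 193.

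The genes nearest in level, by distance of log2(CPM + 1) over the 2 libraries are named here, and all but Mir143 and Gm23450 lay inside an intron. For Mir320 they were Mir107 of Pank1 (2866 and 4593 CPM) and Mir143 (3337 and 3994 CPM), at distances of 0.23 and 0.32. For Mir484 they were Mir30e of Nfyc and Mir378a of Ppargc1b, at 0.10 and 0.15. Mir412 and Mir483 were nearest to Mir877, at 0.13 and 0.15. Mir30c-1 and Gm23450 were nearest to Mir1224, and Mir9-3 and Mir873a to Mir702, all at 0.13 or less. With 2 libraries this likeness is one of level and says nothing of shared control.

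Between the libraries Mir320 moved most of the 5. With TMM scaling, which sets libraries level by a trimmed mean of their gene ratios, its log2 ratio of replicate 2 over replicate 1 was 0.59 (exact Clopper-Pearson interval 0.56 to 0.63), or 1.51-fold. The log2 ratio of Mir484 was 0.13 (0.08 to 0.17), or 1.09-fold. Those of Mir702 at 0.13 (-0.04 to 0.30), Mir877 at -0.01 (-0.13 to 0.11) and Mir1224 at -0.07 (-0.24 to 0.10) had intervals that included 0. The sign for Mir877 turned with library size scaling, at 0.00, and with TMM over genes with 10 or more summed reads, at 0.04, the latter chosen after seeing the data. In that setting the interval of Mir702 also lay above 0, at 0.19 (0.02 to 0.35).

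No member was 2-fold apart between the libraries. Of the 308 genes whose reads in both libraries came to 100 or more, 15.9% were, 11.0% higher in replicate 1 and 4.87% higher in replicate 2. Counting intervals lay wholly above 0 for 2 of the 5 members and below 0 for none, against 33.4% and 44.5% of the 308 genes, or 77.9% in either direction. By the size of its log2 ratio Mir320 was number 93 of the 308, Mir702 251, Mir484 254, Mir1224 282 and Mir877 304. The median size was 0.13 over the members and 0.33 over the 308 genes. With a single library per replicate, any differences between animals, dissections and library preparations cannot be told apart.

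Blood and vessel markers were higher in the same library as Mir320. The red cell Mir451a had 60 and 1356 reads, a log2 ratio of 4.83, and Mir144 had 23 and 79 reads, while Mir486, also of red cells, had 131 and 84. The endothelial Mir126a had a log2 ratio of 0.60. Other lists went the other way. The epithelial Mir200b had 2529 and 19 reads. The choroid plexus markers Mir449a and Mir204 summed to 4456 and 2492 CPM, with log2 ratios of -0.87 and -0.82. The 4 markers of neural progenitors and brain summed to 5659 and 3886 CPM, of which Mir92b gave 5396 and 3629. Mir9-1 was also lower in replicate 2, with 77.9 and 57.2 CPM, and Mir9-2 had 9 and 2 reads. Mir9-3 went the other way, with 182 and 198 CPM, a log2 ratio of 0.11 (-0.06 to 0.27). The part of such cells in the difference of Mir320 was not tested. Without the red cell and epithelial markers in the total, a setting chosen after seeing the data, the mean of Mir320 was 4139 CPM. In tissue, fewer cells of a type and less RNA per cell cannot be told apart.

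**Figure D3:**
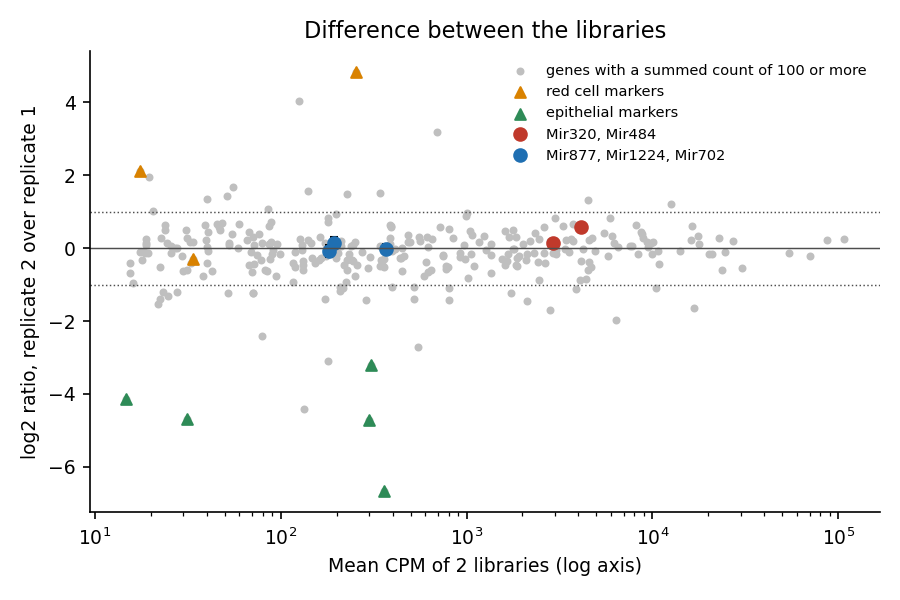
Log2 ratio of replicate 2 over replicate 1 against mean CPM on a log axis for the 308 genes of 100 or more reads in all, with dotted lines at 2-fold and 95% counting intervals on the 5 members. All 5 members lie between the dotted lines, with Mir320 the highest at 0.59, while Mir451a lies at 4.83 and Mir200b at -6.67.

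Annotation M21 holds 29 microRNA genes whose hairpin has both ends within 10 bases of the ends of 1 intron, and Mir877, Mir702 and Mir1224 are among them. Of these 29 genes, 13 or 44.8% were detected, against 20.4% of all 2202 genes. Reads were found for 23 of the 29, leaving 6 without, and for 795 of the 2202. They held 0.141% of microRNA counts in replicate 1 and 0.163% in replicate 2. Mir1981, in Marc2, led with 307 and 477 CPM, followed by Mir877, Mir702, Mir1224 and then Mir3102, in Arhgef17, with 163 and 182 CPM. These 5 genes gave 85.6% and 86.5% of the reads of such hairpins, and Mir877, Mir702 and Mir1224 alone 52.3% and 46.1%, or 49.0% of the mean CPM. That share depended on the distance allowed. Within 2 bases, which leaves out Mir702, Mir877 and Mir1224 gave 41.8%. Within 20 bases the 3 members gave 0.686%, since that list of 49 also takes in Mirlet7i, the gene of highest CPM in the libraries, named after its value was seen. Mir6944, in the gene of the neuronal actin-binding protein drebrin, came next with 75.4 and 84.4 CPM, 2.16-fold and 2.15-fold below Mir3102. Mir3102 and Mir702, which share a seed, thus lay near the same level.

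The 10 detected hairpins of this kind that are not members had median levels of 28.0 and 25.7 CPM, below each of the 3 members. The median of all 13 was 48.7 CPM. It was 69.5 CPM for the 256 detected genes among 918 that lie inside introns without matching both ends, and 89.2 CPM for all 450 detected genes. The members were chosen by name as known mirtrons, and their place at the top of the list was not tested. Mir1981 was also the one that differed most between the libraries among the 5 leaders, with a log2 ratio of 0.62, number 86 of the 308 genes by its size.

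**Figure D4:**
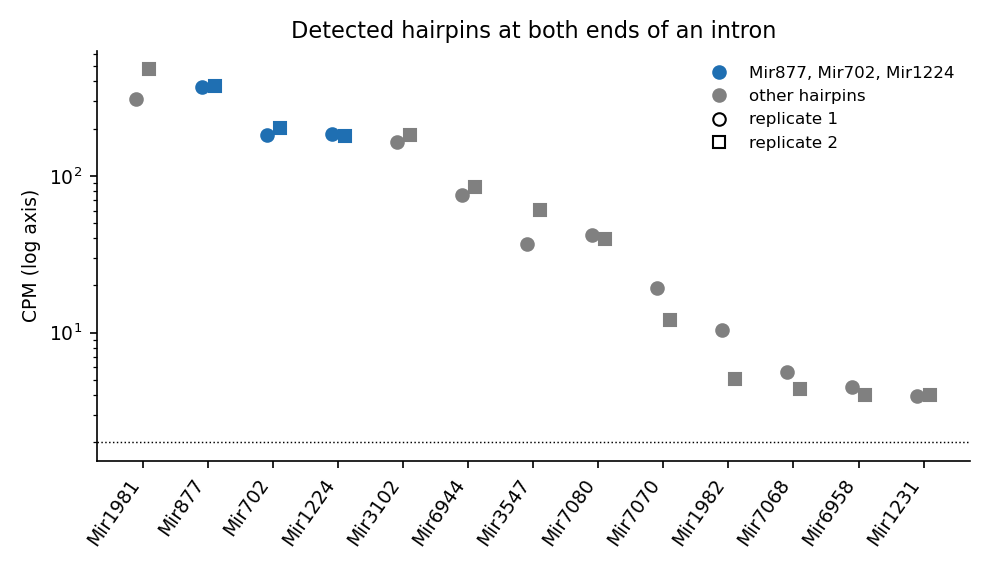
CPM on a log axis of the 13 detected hairpins with both ends at the ends of an intron, with circles for replicate 1, squares for replicate 2 and a dotted line at 2 CPM. Mir877, Mir702 and Mir1224 (blue) stand between Mir1981 and Mir3102.

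RefSeq listed mature products for 25 of the 29 genes. A product began at the intron's first base in 18 of these 25, the 3 members included, and in 15 of the 22 others. Of the 18 products, 17 began with GU, which the splice donor supplies at that position. The products of the 5′ arm of Mir1982, Mir3062, Mir7032 and Mir7034, named after their positions were seen, began 11 to 13 bases into the intron instead. Those of Mir7082, Mir1231 and Mir7058, named in the same way, began 1, 7 and 9 bases into it. At the other end, a product stopped at the intron's last base in 13 of the 25 genes and within 2 bases of it in 21.

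For 36 hairpins the nearest upstream start on the other strand, outside microRNA genes, was that of a protein-coding gene and within 500 bases. Hairpins with a nearer start of another gene type were not counted. The distance was chosen after the positions of Mir320 and Mir484 had been seen. Of the 36 hairpins 5 were detected, or 13.9%, against 20.4% of all genes. Mir320 and Mir484 had the highest levels and gave 72.7% of the mean CPM of the 36. Within 1000 bases they gave 39.0% of 62 hairpins, and within 200 bases, where only Mir320 remains of the members, it gave 99.8% of 19. Mir760, 433 bases from Bcar3, came next with 2079 and 3167 CPM, a log2 ratio of 0.59. Below it Mir5620 had 6.47 and 6.16 CPM. Mir760 also had an annotated start on its own strand, outside microRNA genes, 17 bases away. Of the 87 hairpins within 50 bases of such a start, Mir125b-1 led with 4893 ± 176 CPM, followed by Mir760 and by Mir3072 with 162 ± 24.8 CPM.

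All 5 members had GC-rich hairpins. By RNAfold each folded into a single stem and loop, as did Mir1981 and Mir3102. The share of all hairpins that do so is not given here, so this form is not a trait of the members. GC content was 63.4% for Mir320, 58.2% for Mir484, 61.2% for Mir877, 60.0% for Mir1224 and 65.1% for Mir702, against a median of 50.8% over 2202 hairpins and 62.6% over the 29 at intron ends. Predicted energies at 37 °C were -45.8 kcal/mol for Mir320, -42.8 for Mir1224, -47.4 for Mir702, -36.5 for Mir877 and -24.6 for Mir484. Per base the median energy was -0.37 kcal/mol over all hairpins and -0.43 over the 450 detected ones. Mir702 and Mir877 lay at -0.43 each. By this measure Mir320 was more stable than 93.8% of all hairpins and Mir484 than 49.5%. Mir1224, Mir702 and Mir877 were more stable than 88.0%, 73.6% and 71.5%. Thus the capped hairpins spanned the range of the set, with the mirtrons between them.

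No member shared 22 bases with another hairpin on either strand, whereas 1081 of all 2202 did, as did 2 of the 29 at intron ends. A copy elsewhere among these hairpins would send reads into the total of reads mapped to several places, which held 45.8% of replicate 1 and 41.0% of replicate 2.

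**Figure D5:**
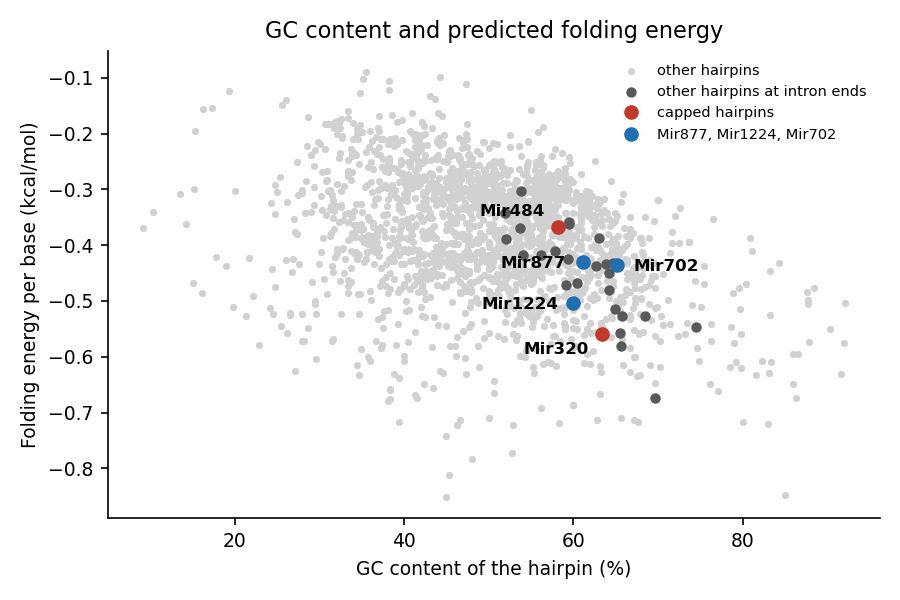
Predicted folding energy per base in kcal/mol against GC content in percent for 2202 hairpins (light points), with the other hairpins at intron ends in dark grey, the capped hairpins in red and the 3 mirtrons in blue. The 5 members lie between 58.2% and 65.1% GC, from -0.37 kcal/mol per base for Mir484 to -0.56 for Mir320.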

How the data were processed

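Each library came with a deposited table of raw read counts, 1 line per microRNA gene, with no normalization or pooling. The build was mm10 with annotation M21, per the submitters' processing notes. The aligner, counter, trimming and filters are not given in the sources used here. The unnamed columns were read as either strand, annotated strand and opposite strand from their layout and values. In the strand-blind column 33 and 34 genes, Mir126a, Mir451a and Mir486 among them, had fewer reads than on the annotated strand. The 213069 and 175822 reads they lacked equal the reads which that column counts as ambiguous between genes, and no member was among them. The annotated strand was used, and summary lines such as unmapped reads did not enter library sizes. Of all reads, 30.4% and 27.8% were counted.

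From these counts CPM, means with SD and exact Poisson intervals were computed. Ratios used TMM factors of edgeR 4.0.16 with 0.5 added to each count, and exact Clopper-Pearson intervals at 95%. The intervals were tested on simulated Poisson counts without TMM factors. Such counts hold counting error only, so spread between animals or libraries was not part of that test. DESeq2 1.42.0 gave alternative size factors. Positions and introns came from GENCODE M21, which matched all 2202 gene IDs, and sequences from RefSeq. RNAfold 2.7.2 folded the M21 hairpins. Genes were named by rule: the 5 members, 6 other unusual hairpins, the 2 genes nearest in level to each member, the 3 highest non-members of the intron-end and transcript-start classes, and markers. Mir5620 and Mir1982 were named after their values were seen. Members and lists were chosen with earlier results of these data known. No sample was left out. The 2 replicates may reflect technical as well as animal spread. Whether CAST alleles changed mapping was not tested.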

Additional observations from a re-analysis of the deposited data

How the results depend on the processing

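Of 146 values recomputed under alternatives, 101 stayed the same. This meant within the spread of the libraries, on the same side of 0 or, for counts of genes, within 1.5 times. For folding energies under another energy setting, which have no spread between libraries, it meant a change small beside the energy itself. Denominators moved levels by construction. Scaled to all reads in place of microRNA reads, Mir320 stood at 1192, Mir484 at 845, Mir877 at 108, Mir1224 at 53.0 and Mir702 at 55.9, the capped genes at 2037, the mirtrons at 217 and all 5 at 2254. Without the 20 most abundant genes in the total they stood at 10893, 7657, 975, 479, 507, 18550.2, 1960.2 and 20510.4. The column that ignores strand leaves out reads ambiguous between genes, which lowered the total and other genes' counts but no member's. On it Mir877 was at 395, Mir1224 at 194 and the mirtrons at 795 CPM, and the ranks of Mir484, Mir877, Mir1224 and Mir702 were 60, 142, 179 and 177.

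By library alone, the rank of Mir484 ran from 60 to 66, that of Mir1224 was 190 in each and that of Mir702 ran from 180 to 192. The difference of Mir702 minus Mir1224 ran from -2.81 to 23.9 CPM, and per base of hairpin it was -0.37. The log2 ratio of Mir877 became 0.0045 with library size and 0.042 with TMM over genes with 10 or more summed reads, where that of Mir702 was 0.19. Genes 2-fold apart, 49 in the report, numbered 88 from 20 summed reads and 311 from any read. Members 2-fold apart stayed at 0 under those minimums and scalings. Hairpins at intron ends numbered 49 within 20 bases. The members' share of their CPM was 41.8% within 2 and within 5 bases and 0.686% within 20 bases, and ran from 46.1% to 52.3% by library. Those at transcript starts numbered 47 within 20 and 140 within 100 bases. Those upstream of an opposite-strand start numbered 19 within 200 bases, with 1 member, and 62 within 1000 bases. The members' share there was 99.8% and 39.0%, and by library at 500 bases it ran from 71.7% to 74.2%. All 3 distances to an opposite-strand start, the scaling per base, the TMM over genes with 10 or more reads and the total without red cell and epithelial markers were chosen after seeing the data. No paired analysis was possible because there is a single group. A ratio between libraries has no value without a replicate.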

Other observations

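Other hairpins of unusual origin had the following levels. Mir1983, known as a product of a tRNA, stood at 4606 and 3612 CPM, beside Mir320 in rank at 51. Its log2 ratio of replicate 2 over replicate 1 was -0.37 (counting interval -0.40 to -0.33), opposite in sign to that of Mir320. Mir1839, which overlaps a small Cajal body RNA gene of annotation M21, had 1099 and 1388 CPM, a log2 ratio of 0.32 (0.25 to 0.38). Mir664, which overlaps the small nucleolar RNA gene Snora36b, had 39.7 and 40.9 CPM. Mir451a, which needs Drosha but not Dicer, had 16.9 and 491 CPM. Among intron-end hairpins, Mir1982 in Oaz1, named after its values were seen, had 37 and 14 reads, a log2 ratio of -1.02.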
